A study of Rattus norvegicus with 19 samples.

Results

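Gene expression in rat somatosensory cortex was compared between albumin and deoxycholate over 3 times, on 6 of the 19 arrays of the study. The 3 albumin and 3 deoxycholate (DOC) arrays of set 1, the unreplicated time course, were chosen by their treatment labels, and no measured value entered the choice. All were adult male Wistar rats. In the DOC group the cortex was perfused with artificial cerebrospinal fluid carrying 2 mM deoxycholic acid, and tissue was taken at 7, 24 and 48 h. In the albumin group the fluid carried 0.1 mM bovine serum albumin, and tissue was taken at 8, 24 and 48 h. Of the other set 1 arrays, 3 from rats given 10 ng/ml TGF-β1 (8, 24 and 48 h) entered the estimate of the spread, and 1 sham-operated rat at 24 h gives a reference level but entered no test. Each treatment and time was 1 array, for which the labels name a single animal, so no condition was replicated. At the early time, the agent and the 1 h between the DOC and albumin samples cannot be told apart.

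Deoxycholate, a bile salt, breaches the blood-brain barrier, the seal formed by the endothelium of brain vessels, and so lets serum as a whole reach the tissue. Albumin, the most abundant serum protein, enters with it and is known to act on astrocytes through TGF-β receptors. The series asks how albumin, TGF-β1 and barrier opening relate to epilepsy arising in the cortex. Direct exposure to albumin set against opening of the barrier asks which transcripts differ between a single serum protein and the wider insult.

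Values are log2 probe set signals, so a difference of 1 is a 2-fold difference. Array medians lay between 5.09 and 5.17 in set 1. The median correlation of an array with the others of the set lay between 0.9599 (DOC at 48 h) and 0.9771. The labelled tissue carried its defining markers on all 6 arrays. Slc17a7, the vesicular glutamate transporter of cortical excitatory neurons, had signals of 10.99 to 11.82, and Gfap, the astrocyte filament, 10.53 to 13.84.

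Across 10018 genes, 1 gene differed past the threshold over the 3 times. It was the pseudogene Brcc3-ps7, higher on the albumin arrays (limma, Benjamini-Hochberg adjusted p under 0.05, 0.00998% of genes), and 0 genes (0%) were lower. The next smallest adjusted p was 0.46. At an unadjusted p under 0.05 there were 749 genes, 489 higher with albumin (4.88%) and 260 lower (2.6%). The median log2 difference over all genes was 0.03, and the median standard error 0.16. The spread in this test is what the treatment and time terms leave over, so a difference present at 1 time only counts as spread. The unadjusted count was 458 with the 6 arrays alone, 394 without the time term, 336 without the early arrays, 410 without the albumin array at 8 h and 451 without that at 24 h. It was 1234 without the DOC array at 48 h and 1323 without all 48 h arrays.

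The differences at single times were wider than those over all 3. On the early arrays 248 genes were at least 2-fold higher with albumin (2.48%) and 125 lower (1.25%). At 24 h 303 were higher (3.02%) and 251 lower (2.51%), and at 48 h 249 were higher (2.49%) and 179 lower (1.79%). These counts compare 1 array with 1 array and have no test. Of the genes at least 2-fold higher with albumin at 24 h, 76.6% were above DOC at the early time and 28.4% at 48 h. Across genes, the early and 24 h differences had r = 0.27, the early and 48 h differences r = −0.01, and the 24 h and 48 h differences r = −0.24 (10018 genes, which are not independent replicates). The sign was the same at all 3 times for 2652 genes (26.5%), 1527 higher and 1125 lower. Thus the arrays at 24 h and at 48 h did not repeat each other in which treatment was higher.

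**Figure D1:**
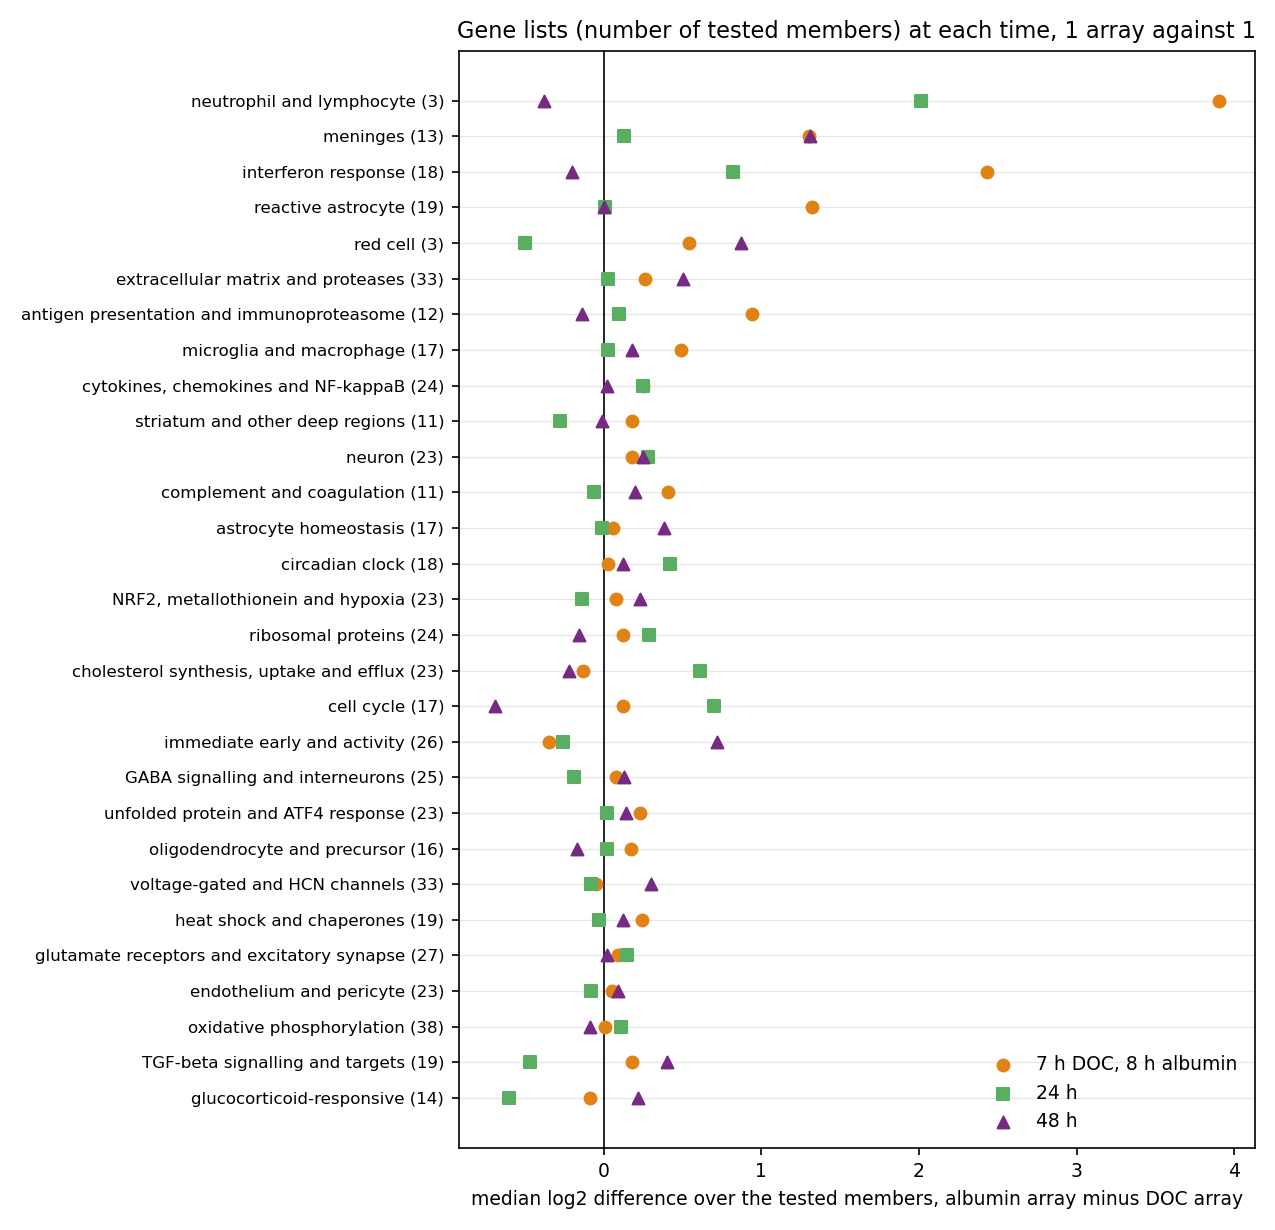
Median log2 difference between the albumin and the DOC array (x axis) of each gene list with 3 or more tested members (y axis, with the number of members), at the early time, 24 h and 48 h; each point compares 1 array with 1 array. The interferon list lies at 2.43, 0.82 and −0.20, while the neuron list lies at 0.18, 0.28 and 0.25.

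Brcc3-ps7 is a pseudogene related to Brcc3, which encodes a deubiquitinase. Its log2 signal was 8.36, 8.63 and 8.10 with albumin at 8, 24 and 48 h and 3.00, 2.11 and 2.13 with DOC at 7, 24 and 48 h. The groups did not overlap, and the difference was 5.95 ± 0.21 (SE; adjusted p = 0.000152 in limma). It was 7.52, 7.17 and 7.01 with TGF-β1 and 8.35 in the sham, so the 3 DOC arrays were the low ones. The DOC signals lie under the filter value of 4, near the floor of the arrays, so the exact size of the difference and its SE should not be read closely. With the 6 arrays alone the difference did not pass (adjusted p = 0.0527). The signal also took high and low values among arrays of a single treatment in set 2. There it was 9.72, 8.62 and 2.23 with albumin, 8.74, 2.14, 8.48 and 2.24 where TGF-β receptors were blocked beside albumin, and 8.73 and 8.67 in the shams. Low signal was therefore not limited to DOC. Brcc3 itself had 10.03, 10.21 and 10.14 with albumin and 9.91, 10.46 and 10.27 with DOC. Probes for a gene and its pseudogene can share target, which the deposited values cannot separate.

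The direction was the same at every time for 2652 genes (26.5%), and of these genes only Brcc3-ps7 passed the threshold. Signs unrelated between the times would agree in a similar share of genes, so this count does not show a lasting difference. The 3 albumin arrays all lay above the 3 DOC arrays for 438 genes (4.37%) and all below them for 377 (3.76%). At least 2-fold higher with albumin at all 3 times were 5 genes (0.0499%), namely Brcc3-ps7, Col1a2, Ifi27l2b, Ptges and S100a6, and 0 (0%) were lower. Col1a2, a chain of type I collagen, had 6.42, 4.30 and 8.21 with albumin against 4.03, 3.22 and 6.49 with DOC (1.73 ± 0.32, adjusted p = 0.611). Its levels overlapped between the groups because both were highest at 48 h. Ifi27l2b, of the interferon-inducible Ifi27 family, had 5.99, 5.68 and 7.05 against 4.72, 4.15 and 5.88 (1.33 ± 0.21, adjusted p = 0.46). Ptges, which makes prostaglandin E2, had 9.27, 6.33 and 7.24 against 7.90, 5.32 and 4.47 (1.72 ± 0.44, adjusted p = 0.645). The sham level of Ptges was 3.35, below all 6 treated arrays. S100a6, a calcium-binding protein, had 6.68, 7.55 and 9.42 against 5.26, 6.38 and 8.29 (1.24 ± 0.27, adjusted p = 0.645).

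Among the other genes with the smallest p and one direction at all times, Psd, an exchange factor for the small GTPase Arf6, had 5.89, 6.25 and 5.49 with albumin and 4.63, 4.48 and 4.64 with DOC (1.29 ± 0.18, adjusted p = 0.46). The sham had 6.70 and the TGF-β1 arrays 6.48 to 6.73, all above both groups. Serpinf1, the secreted factor PEDF, had 5.59, 5.28 and 6.86 against 3.58, 4.37 and 5.30 (1.49 ± 0.24, adjusted p = 0.46). Igfbp2, which binds insulin-like growth factors, had 8.08, 10.18 and 10.51 against 6.97, 8.32 and 9.77 (1.24 ± 0.21, adjusted p = 0.502). Both genes were also higher on the TGF-β1 arrays than on the DOC arrays at each time. The platelet chemokine Pf4 (0.99 ± 0.18), Ephb6, a receptor of ephrins (0.76 ± 0.12), the palmitoyltransferase Zdhhc22 (0.99 ± 0.16) and Fbxl19 (1.01 ± 0.18) completed the list (adjusted p 0.46 to 0.611).

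In the other direction, Blnk, an adaptor of B cell receptor signalling, had 6.50, 6.49 and 8.19 with albumin and 8.09, 8.36 and 8.71 with DOC (−1.33 ± 0.26, adjusted p = 0.645). Ubn1, a histone H3.3 chaperone subunit, had 9.15, 9.22 and 8.62 against 10.05, 9.89 and 9.35 (−0.77 ± 0.11, adjusted p = 0.46). Its sham level was 8.00 and its TGF-β1 levels 8.00 to 8.55, so both groups lay above those arrays. Kcne4, an accessory subunit of potassium channels, had 5.07, 4.67 and 4.04 against 5.72, 6.30 and 5.55 (−1.26 ± 0.23, adjusted p = 0.611). Pdk4, which restrains glucose oxidation in mitochondria, had 7.16, 4.17 and 4.86 against 8.21, 6.59 and 5.67 (−1.42 ± 0.35, adjusted p = 0.645). Pax6, a transcription factor of neural progenitors and astrocytes, had −0.89 ± 0.23 (adjusted p = 0.645). Rlig1 (−1.0 ± 0.15), Snrpn (−0.84 ± 0.13), Eri2 (−0.90 ± 0.16), Gin1 (−0.62 ± 0.13), Pnlip (−0.89 ± 0.19), Giot1 (−0.64 ± 0.14) and LOC102554214 (−0.81 ± 0.23) were also lower with albumin without passing. Aurkb, a mitotic kinase, had 2.53 to 2.94 with albumin and 3.35 to 4.28 with DOC (−1.14 ± 0.15, adjusted p = 0.46), which is near the floor of these arrays. It passed the filter only through 2 DOC arrays (4.09 and 4.28), so its place here follows from the filter.

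**Figure D2:**
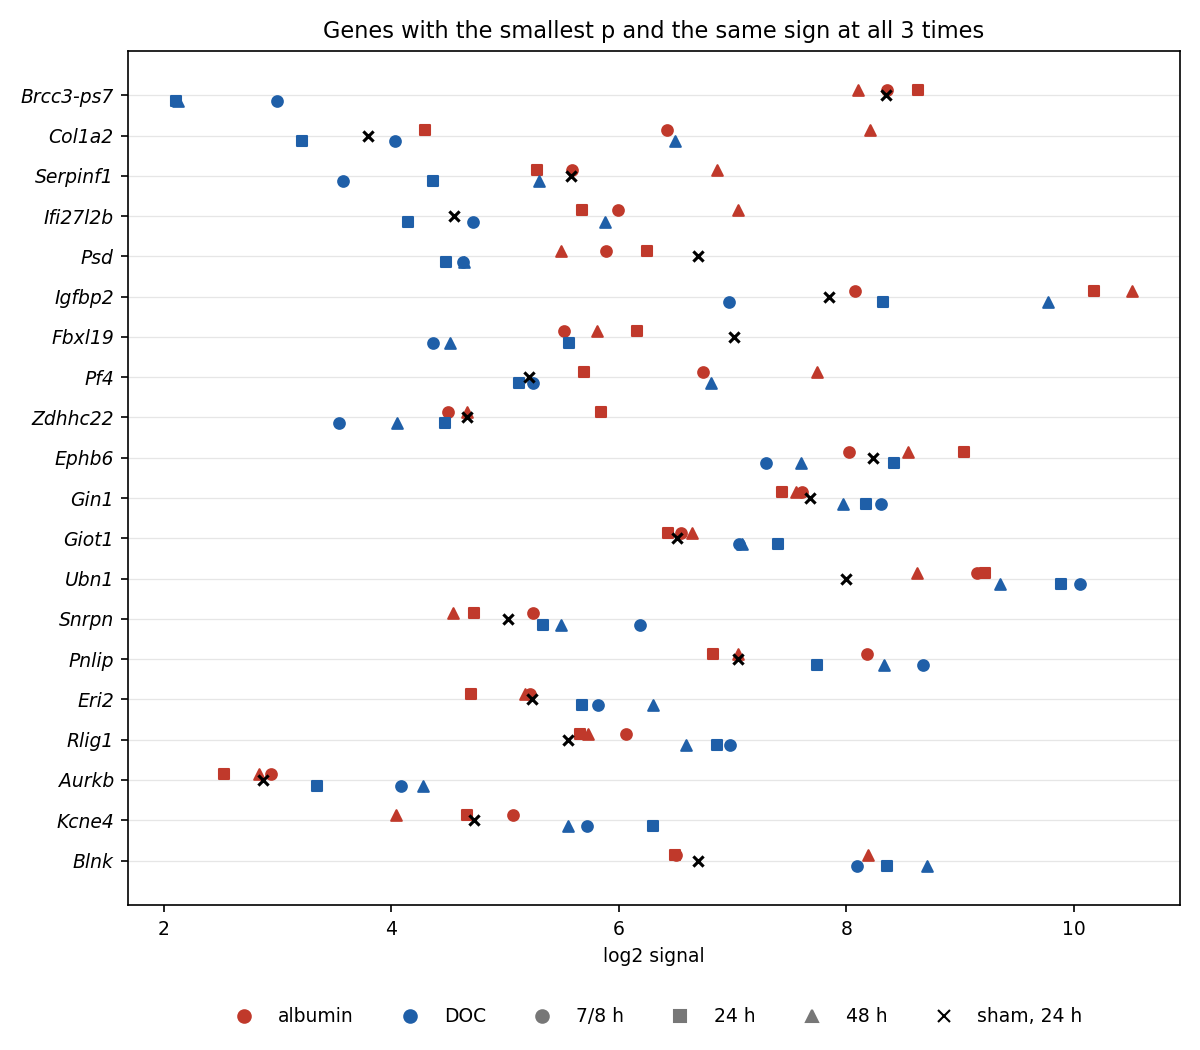
Log2 signal (x axis) of the 10 genes per direction with the smallest p among those with the same sign at all 3 times (y axis), on the 3 albumin and 3 DOC arrays, with the sham as a cross; marker shape gives the time. Brcc3-ps7 spans 2.11 to 8.63, and its DOC arrays lie at 3.00 and below.

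Interferon response genes showed the widest early difference of any list with more than 3 tested members. Type I interferons act through transcription factors that bind a short element in the promoters of antiviral genes. A list of such genes had 18 tested members. Of these, 6 were higher with albumin at an unadjusted p under 0.05 and 0 lower (4.88% and 2.6% over all genes), 17 of 18 lay above 0, and 0 passed the adjusted threshold. The median difference over the 3 times was 0.93, against 0.03 over all genes. By time it was 2.43, 0.82 and −0.20. On the early albumin array 14 of 18 were at least 2-fold higher (2.48% over all genes). At 48 h 1 was at least 2-fold higher and 5 lower (2.49% and 1.79% over all genes). The mean level over the 18 genes was 7.53, 6.32 and 6.20 with albumin and 4.91, 5.45 and 6.41 with DOC. It was 5.29, 5.92 and 6.15 with TGF-β1 and 5.63 in the sham. The early albumin array was therefore above the sham and the early DOC array below it. Without the DOC array at 7 h, 0 of 18 had an unadjusted p under 0.05 (median 0.53), and without the albumin array at 8 h 2 did (median 0.39). Without the albumin array at 48 h 12 did (median 1.35), and without the DOC array at 48 h 11 did (median 1.22). The count was 2 without all early arrays, 12 without all 48 h arrays, 3 with the 6 arrays alone, 3 without the time term and 2 without the filter.

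The interferon-stimulated response element, written as GAAA, any 2 bases and GAAA, was searched on both strands in the 250 bases before the start of each gene. RefSeq promoters of assembly GRCr8 were used, of which 12 matched the 18 members by symbol. The element was found in 7 of the 12, in 2.44% of 8397 promoters of tested genes and in 3.41% of 33469 promoters in all. The 5 without a match were Irf1, Irf8, Irf9, Mx1 and Stat2. A match is a description of letters and does not show binding. Of the 7 members with a match, 6 are shown, all but Ifi27. Isg15, which had the widest early gap, had no promoter entry. They run 5′ to 3′ along the gene, with the first match in capitals, on the reverse strand where it reads TTTC.
Rsad2: ctggttcaacTTTCATTTTCagaaaacaga
Ifit3: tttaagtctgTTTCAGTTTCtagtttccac
Irf7: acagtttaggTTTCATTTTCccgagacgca
Gbp2: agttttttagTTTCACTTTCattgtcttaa
Bst2: ccctttccagGAAAATGAAActgaaaggtg
Ifitm3: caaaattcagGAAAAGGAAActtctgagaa
They lie at chr6:48788248-48788277 (reverse strand), chr1:241527272-241527301 (forward), chr1:205800073-205800102 (reverse), chr2:234005686-234005715 (forward), chr16:18255079-18255108 (reverse) and chr1:205541783-205541812 (reverse) of GRCr8. The capitals begin 31 (Gbp2) to 147 (Rsad2) bases before the start. Bst2 held 2 matches, and Ifi27, the seventh gene with the element, also held 2.

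The early signals of most members were highest with albumin. Rsad2, the antiviral enzyme viperin, which has the first stretch shown, had 11.34, 6.67 and 5.90 with albumin and 6.34, 5.85 and 7.23 with DOC, with 6.46 in the sham (1.5 ± 1.09, adjusted p = 0.75). Isg15, a ubiquitin-like modifier, had 9.26, 5.49 and 4.71 against 2.28, 3.13 and 5.83, with 4.74 in the sham (2.74 ± 1.44, adjusted p = 0.697). Ifit3, an antiviral protein with a repeat fold, had 7.77, 5.07 and 2.85 against 2.88, 2.88 and 3.89. All 3 had their highest signal on the albumin array at 8 h and their highest DOC signal at 48 h. Gbp2, an interferon-induced GTPase, had 8.84, 6.31 and 7.16 against 5.20, 5.49 and 8.54, again with the order turned at 48 h. Slfn4, of the Schlafen family, had 6.25, 6.12 and 4.04 with albumin, 2.48, 2.31 and 6.33 with DOC, and 2.24 to 2.28 on the TGF-β1 and sham arrays (1.76 ± 1.10, adjusted p = 0.726). Without the 48 h arrays, on which DOC was the higher, Slfn4 passed the threshold, at 3.79. The DOC and TGF-β1 signals left in that fit were 2.24 to 2.48, near the floor of the arrays. Its spread and the call should therefore not be read closely. Slfn4, Cxcl11 and Cxcl10 are not members of the interferon list. Cxcl11, a chemokine for T cells that interferon induces, had 8.98 on the early albumin array and 2.28 on the early DOC array, then 2.28 and 2.27 at 24 h and 4.79 and 5.48 at 48 h (2.01 ± 1.42, adjusted p = 0.749). Cxcl10, its close relative, had 8.37, 1.97 and 1.97 with albumin and 4.59, 1.99 and 2.69 with DOC.

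The members with the smallest p were Ifitm1, Bst2 and Irf7. Each was above DOC at the early time and at 24 h, as Isg15 and Rsad2 also were. Irf7, the interferon-induced master regulator of type I interferon, had 7.47, 6.37 and 5.03 with albumin and 3.64, 3.47 and 5.24 with DOC (2.17 ± 0.74, adjusted p = 0.645). Bst2, which tethers virus particles, had 6.58, 7.03 and 7.28 against 3.16, 5.89 and 6.98 (1.62 ± 0.52, adjusted p = 0.645). The shams of Irf7 and Bst2 were 6.50 and 7.08, above the DOC arrays at all 3 times. The sham was also above the albumin arrays at 24 and 48 h for Irf7 and at 8 and 24 h for Bst2. The early TGF-β1 array was also under the sham for both, at 4.55 and 5.02, so low signal was not limited to DOC. Ifitm1, a membrane protein that blocks virus entry, had 5.43, 6.49 and 8.38 against 3.17, 6.10 and 7.07, with 1.97 in the sham (1.32 ± 0.41, adjusted p = 0.645). Mx1 (1.43 ± 0.51), Ifi27 (0.70 ± 0.26) and Ifitm3 (0.90 ± 0.35) were the other members with an unadjusted p under 0.05. Ifit1, Oas1a, Oasl and Ifih1 were below the filter, and Gbp5 had no probe set naming it alone.

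**Figure D3:**
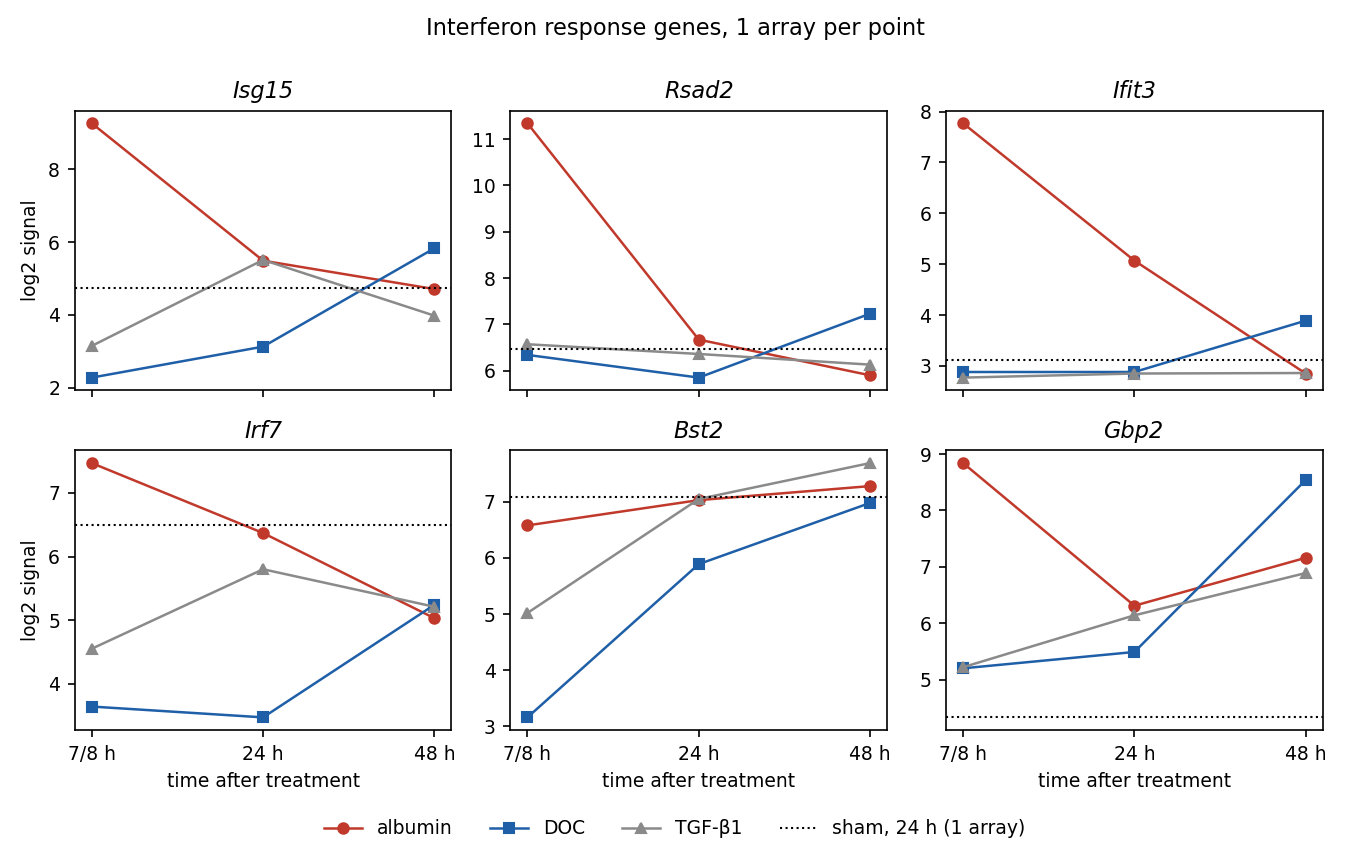
Log2 signal (y axis) of 6 interferon response genes by time after treatment (x axis) for albumin, DOC and TGF-β1, with the single sham array as a dotted line; each point is 1 array. Isg15 stands at 9.26 on the early albumin array and 2.28 on the early DOC array, and the order turns at 48 h (4.71 and 5.83).

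Genes of antigen presentation were also higher on the early albumin array. All 12 tested members lay above 0 on the early arrays and 5 were at least 2-fold higher with albumin (2.48% over all genes). The medians were 0.94, 0.10 and −0.14 by time and 0.33 over the 3 times, with 3 higher at an unadjusted p under 0.05 and 0 lower (4.88% and 2.6% over all genes). B2m, the light chain of class I molecules, had 12.91, 12.75 and 13.05 with albumin against 12.35, 12.14 and 12.87 with DOC (0.45 ± 0.14, adjusted p = 0.645). Cd74, the invariant chain of class II molecules, had 6.48, 5.75 and 6.83 against 3.96, 5.84 and 6.21, with 3.45 in the sham (1.02 ± 0.43, adjusted p = 0.666). Psmb8, of the immunoproteasome, had 3.70, 3.46 and 4.12 against 2.01, 3.48 and 3.49 (0.77 ± 0.32, adjusted p = 0.664), near the floor of the arrays. It passed the filter only through the albumin and TGF-β1 arrays at 48 h (4.12 and 4.63). Its place among the 3 therefore follows in part from the filter. Among the treated arrays the early DOC array was the lowest for Cd74, at 3.96 beside 3.45 in the sham. The count of 3 was 0 without the albumin array at 8 h, all early arrays or the time term, and 0 with the mean of probe sets. It was 1 without the DOC array at 7 h, the TGF-β1 array at 8 or 48 h or the filter, and 1 with the 6 arrays alone.

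Single genes of the rat major histocompatibility complex, RT1, were among those with the widest differences at 48 h. RT1-CE12, a class I gene, had 7.92, 8.03 and 4.10 with albumin and 7.92, 8.94 and 8.94 with DOC (−1.92 ± 1.06, adjusted p = 0.702). RT1-CE10 had 5.78, 5.95 and 2.41 against 5.82, 6.83 and 6.35 (−1.62 ± 1.04, adjusted p = 0.731). RT1-T24-4 had 2.05, 2.06 and 7.19 against 2.40, 2.92 and 2.53, with 5.95 in the sham (1.15 ± 0.96, adjusted p = 0.78). In all 3 genes the albumin array at 48 h stood apart from the other albumin arrays. RT1 genes are near-identical copies that differ between animals, so which copy a probe set reads is uncertain. The splicing factor Cwc25 had 6.01, 5.86 and 2.82 against 6.28, 6.11 and 5.89 (−1.19 ± 0.54, adjusted p = 0.675), with the same albumin array low.

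Genes of reactive astrocytes, the glia that respond to injury, were higher on the early albumin array than on the early DOC array, and their median differences were near 0 afterwards. Of 19 tested members, 4 were higher with albumin at an unadjusted p under 0.05, 0 were lower (4.88% and 2.6% over all genes) and 18 lay above 0. The median was 0.48 over the 3 times and 1.32, 0.01 and 0.00 by time. On the early albumin array 10 of 19 were at least 2-fold higher (2.48% over all genes). The mean level was 7.65, 8.25 and 8.13 with albumin, 6.27, 7.97 and 8.13 with DOC, 6.56, 7.58 and 8.04 with TGF-β1 and 5.46 in the sham. All 9 treated arrays were above the sham, and the early albumin array was above both other early arrays. Without the early arrays 0 of 19 had an unadjusted p under 0.05 and the median was 0.17. The same count was 0 without the DOC array at 7 h alone (median 0.26) and 0 without the albumin array at 8 h alone (median 0.27). It was 0 without the time term or the filter, 1 with the 6 arrays alone and 2 without the TGF-β1 array at 48 h. In such bulk samples fewer cells of a type and less RNA per cell cannot be told apart.

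Gfap had 12.28, 13.70 and 13.84 with albumin and 10.53, 13.49 and 13.44 with DOC, with 11.83 on the early TGF-β1 array and 12.07 in the sham (0.79 ± 0.29, adjusted p = 0.645). The early DOC array was thus below the sham, and the later arrays of both groups were above it. Vim, another intermediate filament, had 9.96, 11.48 and 12.40 against 9.14, 11.00 and 12.30 (0.47 ± 0.18, adjusted p = 0.653). Timp1, an inhibitor of matrix proteases, had 10.66, 10.01 and 11.36 against 6.70, 10.09 and 10.59, with 4.15 in the sham. The acute-phase genes Serpina3n (4.51, 6.44 and 5.83 against 2.35, 6.42 and 4.60; 1.14 ± 0.42, adjusted p = 0.646) and Cp, the copper carrier ceruloplasmin (7.96, 7.36 and 8.88 against 6.24, 7.52 and 7.40; 1.02 ± 0.38, adjusted p = 0.646), had the same early gap. At 48 h some members turned. Nes, a filament of progenitors and reactive glia, had 3.69, 5.83 and 6.37 with albumin and 2.98, 3.71 and 7.70 with DOC, and Lcn2, the secreted lipocalin, had 7.34, 9.27 and 6.86 against 6.59, 7.80 and 8.80.

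Astrocyte genes that handle potassium, water and glutamate had small differences. Of 17 tested members, 0 were 2-fold apart at any time. At an unadjusted p under 0.05, 2 were higher with albumin and 0 lower (4.88% and 2.6% over all genes). The count was 6 without the DOC array at 24 h and 0 without the DOC array at 7 or 48 h, the albumin array at 8 or 48 h, or the time term. The medians were 0.06, −0.01 and 0.38 by time. Mlc1, a membrane protein of astrocyte endfeet, had 0.40 ± 0.14 (adjusted p = 0.645), S100b 0.31 ± 0.13 (adjusted p = 0.662) and the glycolytic Aldoc 0.28 ± 0.12 (adjusted p = 0.672). The water channel Aqp4 had 12.82, 12.75 and 13.37 against 12.84, 12.40 and 13.04. The glutamate transporter Slc1a2 had 8.05, 7.00 and 7.02 against 7.67, 7.38 and 6.33, and glutamine synthetase Glul 12.62, 12.64 and 12.53 against 12.40, 12.71 and 11.96. For both, the DOC array at 48 h was the lowest of the 6. The potassium channel Kcnj10 was below the filter.

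Myeloid genes differed most at the early time. Of 17 microglia and macrophage genes, 2 were higher with albumin at an unadjusted p under 0.05 and 0 lower (4.88% and 2.6% over all genes). The medians were 0.49, 0.03 and 0.18 by time. With 1 array left out the count ran from 1 to 4, highest without the DOC array at 48 h. Lyz2, lysozyme of phagocytes, had 11.41, 10.95 and 12.45 with albumin and 9.50, 10.85 and 11.68 with DOC (0.92 ± 0.34, adjusted p = 0.645). Aif1, a marker of microglia, had 6.26, 7.17 and 8.57 against 5.0, 7.14 and 8.23 (0.54 ± 0.23, adjusted p = 0.664). P2ry12, a receptor of resting microglia, had 7.21, 6.02 and 9.81 against 7.58, 7.83 and 9.97, with 8.88 in the sham. Its lowest value of the 6 was on the albumin array at 24 h. Of the neutrophil and lymphocyte markers, 3 passed the filter. S100a8, a calcium-binding protein abundant in neutrophils, had 8.75, 5.64 and 3.24 against 4.10, 3.63 and 3.62, with 3.34 in the sham (2.09 ± 0.84, adjusted p = 0.658). Its partner S100a9 had 11.02, 8.13 and 5.19 against 7.12, 6.08 and 6.52 (1.54 ± 0.84, adjusted p = 0.702). Both were highest on the early albumin array. The 1 member of this list with an unadjusted p under 0.05, S100a8, stood beside counts of 0 to 2 with 1 array left out. Mmp9, a matrix protease, had 5.27, 7.58 and 8.42 against 6.88, 8.76 and 6.03. Csf3r, Cxcr2 and Mmp8, which mark neutrophils more closely, were below the filter.

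Inflammatory messengers differed in both directions at the early time. Of 24 cytokine, chemokine and NF-κB genes, 1 was higher with albumin at an unadjusted p under 0.05 and 0 lower. These are near the shares over all genes (4.88% and 2.6%). The medians were 0.25, 0.25 and 0.02 by time. Over the 3 times 19 of the 24 lay above 0 and 5 below, and on the early arrays 17 lay above 0. That gene was Tlr2, a sensor of microbial products and tissue damage, at 4.24, 4.77 and 4.78 against 3.68, 3.83 and 4.38 (0.63 ± 0.14, adjusted p = 0.645). On the early arrays the cytokine Il6 was higher with albumin (7.95 against 3.99), while Tnf (4.19 against 6.47), Il1b (5.69 against 7.19) and the chemokine Ccl3 (3.57 against 7.03) were higher with DOC. Ccl2, the chemokine that attracts monocytes, had 9.73, 10.13 and 9.31 against 8.60, 10.72 and 9.56, far above its sham level of 2.83 in both groups (0.10 ± 0.44, adjusted p = 0.97; 95% interval −0.94 to 1.13). The count of 1 higher was 4 without the albumin array at 48 h. Without the DOC array at 24 h 4 were higher and 2 lower, and without that at 48 h 3 were higher and 1 lower. Among 11 complement and coagulation genes 1 was higher, Serping1, the inhibitor of complement C1, at 6.58, 7.76 and 7.97 against 5.12, 7.60 and 7.37 (0.74 ± 0.28, adjusted p = 0.646). C1qa had 0.53 ± 0.23 (adjusted p = 0.672) and Thbd 0.37 ± 0.17 (adjusted p = 0.678). The count for complement ran from 0 to 4 with 1 array left out, highest without the DOC array at 24 h.

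Meningeal markers were higher with albumin at the early time and at 48 h. Of 13 tested members, 7 were higher at an unadjusted p under 0.05 and 0 lower (4.88% and 2.6% over all genes), 12 lay above 0, and 0 passed the adjusted threshold. The median was 0.95 over the 3 times and 1.30, 0.13 and 1.31 by time. Their mean level was 6.93, 5.77 and 8.00 with albumin, 5.80, 5.53 and 6.49 with DOC, 6.45, 6.57 and 7.85 with TGF-β1 and 5.47 in the sham. The DOC array was thus below both other treatments at each time. At 24 h the albumin array lay nearer to the DOC array than to the TGF-β1 array. The count was 4 without the DOC array at 48 h (median 0.61), 4 without the albumin array at 8 h (median 0.82), 3 without the early arrays, 3 without the 48 h arrays and 2 without the time term. Slc22a6, Slc22a8, Slc22a2 and Slc13a4, transporters of the meninges, were below the filter in set 1.

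Ogn, a small leucine-rich matrix protein, had 7.80, 3.96 and 6.76 with albumin and 4.41, 3.02 and 4.22 with DOC (2.29 ± 0.62, adjusted p = 0.645). Its TGF-β1 levels were 6.22 to 6.52 and its sham level 3.76, so the DOC arrays and the albumin array at 24 h lay near the sham. Mgp, an inhibitor of calcification, had 9.84, 9.29 and 10.09 against 8.54, 9.06 and 8.79 (0.95 ± 0.23, adjusted p = 0.645). Ptgds, which makes prostaglandin D2, had 12.85, 10.59 and 11.87 against 11.35, 10.40 and 10.40, with 11.50 in the sham (1.05 ± 0.34, adjusted p = 0.645). The membrane transporter Slc6a20a, a proline carrier, had 6.52, 4.89 and 9.37 against 4.22, 5.80 and 4.82 (1.98 ± 0.91, adjusted p = 0.678). Igf2, a growth factor of meninges and choroid plexus, had 0.60 ± 0.24 (adjusted p = 0.658).

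Of 33 genes of the extracellular matrix and its proteases, 6 were higher with albumin at an unadjusted p under 0.05 and 0 lower (4.88% and 2.6% over all genes), with medians of 0.26, 0.03 and 0.50 by time. Timp3, a matrix-bound protease inhibitor, had 9.13, 9.13 and 9.15 against 8.77, 8.77 and 8.76 (0.37 ± 0.11, adjusted p = 0.645), a small gap repeated at each time. Lama4, a laminin of vessel walls, had 0.49 ± 0.16 (adjusted p = 0.645). At 48 h 8 of 33 were at least 2-fold higher with albumin and 0 lower (2.49% and 1.79% over all genes), among them the fibrillar collagen Col3a1 (8.79 against 6.20) and tenascin C, Tnc (8.02 against 6.45). The meningeal list had a median of 1.31 at that time, and 5 genes stand on both lists (Col1a1, Col1a2, Col3a1, Dcn and Lum). The part of meningeal tissue in the matrix difference was not tested. The matrix median was 0.11 without the DOC array at 48 h, when 2 members had an unadjusted p under 0.05. That count was 3 without the albumin array at 48 h, without all early arrays or without all 48 h arrays, 3 with the mean of probe sets and 1 without the time term.

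Genes of the vessel wall showed both directions. Of 23 endothelium and pericyte genes, 2 were higher and 1 lower with albumin at an unadjusted p under 0.05, with a median of 0.05. These shares are near those over all genes (4.88% and 2.6%), and with 1 array left out the counts ran from 1 to 3 higher and 1 to 2 lower. Ocln, a tight junction protein, had 4.60, 4.37 and 6.38 with albumin and 4.90, 5.53 and 6.81 with DOC, with 6.28 in the sham (−0.63 ± 0.18, adjusted p = 0.645). Cldn5, the main claudin of the barrier, had 9.28, 9.34 and 10.70 against 9.65, 10.34 and 10.54, with 10.31 in the sham (−0.40 ± 0.23, adjusted p = 0.702; 95% interval −0.94 to 0.14). At 24 h both junction genes were lower on the albumin array than on the DOC array. Vwf, the clotting factor of endothelium, had 0.84 ± 0.26 (adjusted p = 0.645) and the amino acid transporter Slc7a5 0.81 ± 0.27 (adjusted p = 0.645). Angpt2, a vessel-destabilising ligand, had 6.92, 8.19 and 6.03 against 5.64, 7.22 and 3.93, with 3.05 in the sham. The 3 red cell genes tested had a median of 0.41 with 0 past an unadjusted p under 0.05, and haemoglobin Hbb had 13.68, 12.49 and 12.54 against 13.43, 12.99 and 11.94. Ttr, the 1 choroid plexus marker above the filter, had 5.63 on the early DOC array, 5.31 in the sham and 3.31 to 3.60 on the other arrays of the comparison. Among 11 markers of striatum and other deep regions, 1 was higher with albumin, the dopamine receptor Drd1, at 7.35, 6.60 and 6.99 against 5.04, 6.20 and 6.27 (1.14 ± 0.48, adjusted p = 0.664). That list had 0 higher and 1 lower, with a median of −0.02, without the DOC array at 7 h.

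**Figure D4:**
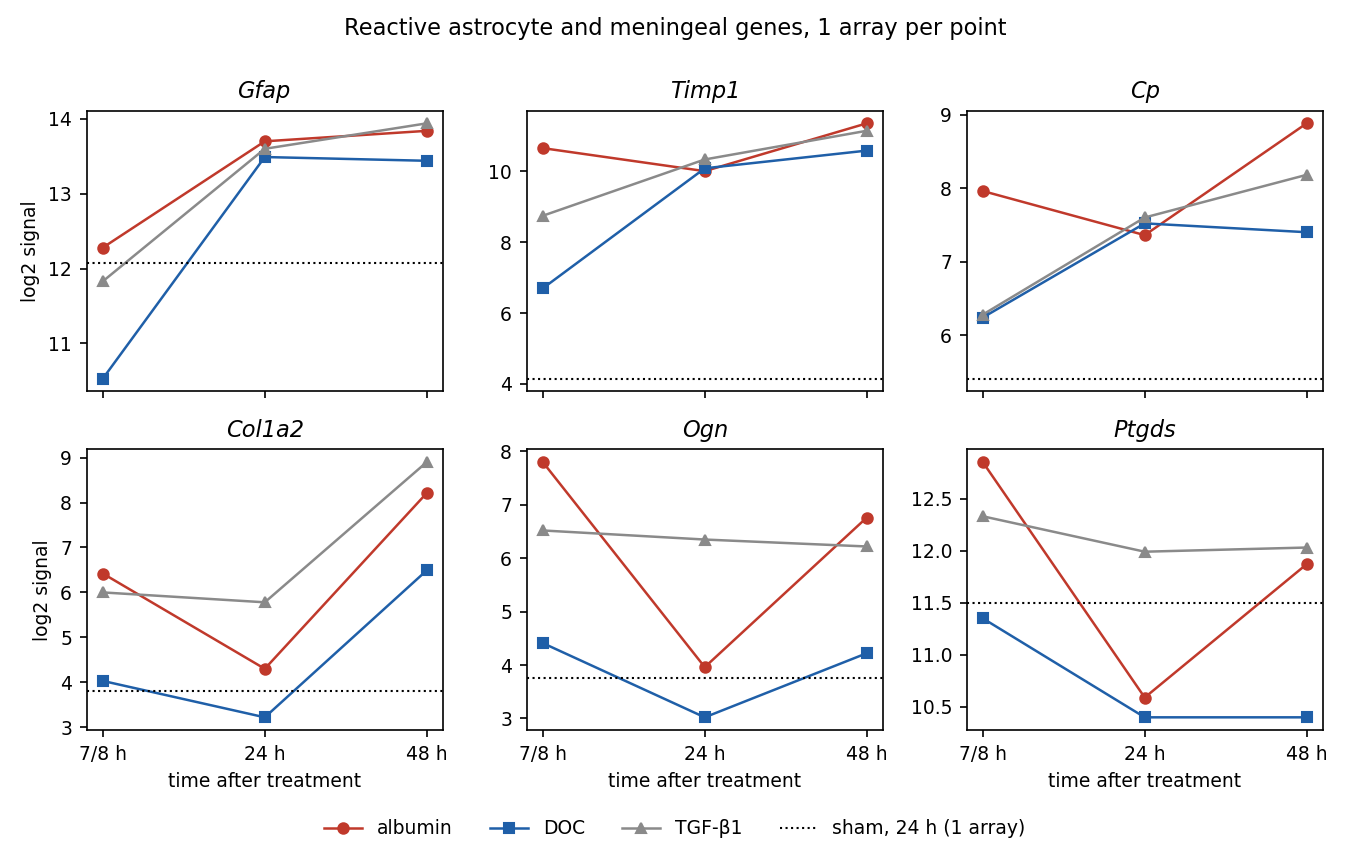
Log2 signal (y axis) of 3 reactive astrocyte genes (Gfap, Timp1, Cp) and 3 meningeal genes (Col1a2, Ogn, Ptgds) by time after treatment (x axis) for albumin, DOC and TGF-β1, with the single sham array as a dotted line; each point is 1 array. Timp1 stands at 10.66 with albumin and 6.70 with DOC at the early time and at 10.01 and 10.09 at 24 h.

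Neuronal genes were slightly higher with albumin at each time. All 23 tested neuron markers lay above 0, 6 had an unadjusted p under 0.05 (4.88% over all genes were higher), and 0 passed the adjusted threshold. The median was 0.19, and 0.18, 0.28 and 0.25 by time. The mean level was 11.90, 11.97 and 11.58 with albumin, 11.65, 11.65 and 11.37 with DOC, 11.88, 11.80 and 11.86 with TGF-β1 and 12.01 in the sham. Tubb3, the neuronal tubulin, had 9.77, 9.86 and 9.34 with albumin and 9.08, 8.53 and 8.99 with DOC (0.79 ± 0.20, adjusted p = 0.645). Its groups did not overlap, which held for 4.37% of all genes with albumin higher. Eno2, the neuronal enolase, had 0.42 ± 0.12 (adjusted p = 0.645), and Nrgn, a calmodulin-binding protein of dendrites, 0.41 ± 0.15 (adjusted p = 0.646). Camk2a, a kinase of excitatory synapses, had 11.69, 11.58 and 8.34 against 10.41, 10.34 and 8.12, with 11.22 on the TGF-β1 array at 48 h. Both the albumin and the DOC array at 48 h were thus low for this gene. The count of 6 was 2 without the albumin array at 24 h and 2 without the 24 h arrays, with medians of 0.17 and 0.21. It was 3 without the DOC array at 7 h, the albumin array at 8 h or all early arrays, and 3 without the time term.

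Genes of synapses, channels and myelin had counts near the shares over all genes (4.88% higher and 2.6% lower), so the counts are no result about these lists. Of 27 glutamate receptor and synapse genes, 2 were higher with albumin at an unadjusted p under 0.05 and 0 lower (median 0.06), namely the kainate receptor subunit Grik5 (0.41 ± 0.11, adjusted p = 0.645) and the obligatory NMDA receptor subunit Grin1 (9.52, 9.63 and 9.08 against 9.16, 9.48 and 8.51; 0.36 ± 0.14, adjusted p = 0.658). Of 25 genes of GABA signalling and interneurons, 1 was higher and 1 lower (median 0.08). Sst, the peptide somatostatin, had 10.16, 10.27 and 10.24 against 9.29, 10.08 and 9.49 (0.61 ± 0.18, adjusted p = 0.645). Gad2, which makes GABA at terminals, had 8.86, 8.85 and 8.98 against 9.35, 9.30 and 9.51 (−0.49 ± 0.12, adjusted p = 0.645). Both genes separated the groups without overlap, as 4.37% of all genes did with albumin higher and 3.76% with albumin lower. The other GABA-making enzyme, Gad1, had 0.09 ± 0.15 (adjusted p = 0.907; 95% interval −0.26 to 0.43). Of 33 voltage-gated and HCN channel genes, 1 was higher, the calcium channel Cacna1a (0.64 ± 0.20, adjusted p = 0.645), and 1 lower, the accessory subunit Cacnb4 (−0.61 ± 0.18, adjusted p = 0.645). Of 16 oligodendrocyte genes, 1 was lower, Aspa, which breaks down N-acetylaspartate (−0.61 ± 0.18, adjusted p = 0.645), and myelin basic protein, Mbp, had 0.15 ± 0.13 (adjusted p = 0.786). With 1 array left out the channel counts reached 5 higher (without the DOC array at 7 h) and 4 lower (without the DOC array at 48 h).

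Immediate early genes, which neurons and glia switch on within minutes of a stimulus, were mostly lower with albumin up to 24 h and higher at 48 h. Of 26 tested members, 1 was higher with albumin at an unadjusted p under 0.05, Ier3 (0.66 ± 0.24, adjusted p = 0.645), and 0 were lower. Over all genes 4.88% were higher and 2.6% lower, so this count is no result about the list. Without the DOC array at 48 h 2 members were higher and 6 lower, and the median over the times was −0.25 in place of 0.08. The medians were −0.35, −0.26 and 0.72 by time. On the early arrays 7 were at least 2-fold lower with albumin and 3 higher (1.25% and 2.48% over all genes). At 24 h 8 were lower and 2 higher (2.51% and 3.02%). At 48 h 0 were lower and 11 higher (1.79% and 2.49%). Fos had 10.35, 11.01 and 9.85 with albumin and 11.30, 11.32 and 8.07 with DOC, with 10.76 in the sham (0.17 ± 0.54, adjusted p = 0.959). Arc, a synaptic plasticity protein, had 7.55, 6.38 and 8.43 against 7.73, 9.59 and 5.85, with 9.47 in the sham. Bdnf, the neurotrophin, had 8.87, 8.35 and 8.97 against 9.98, 9.89 and 7.18, and Fosb 6.57, 7.31 and 5.82 against 8.08, 7.30 and 3.14. In each of these genes the DOC array at 48 h was the lowest of the 6. The mean level of the list there was 6.88, against 7.85 with albumin, 7.13 with TGF-β1 and 8.10 in the sham.

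Targets of TGF-β were highest on the DOC array at 24 h. The cytokine signals through SMAD transcription factors to genes such as Smad7 and Pmepa1, which restrain the pathway. Of 19 tested members, 0 had an unadjusted p under 0.05, and the median was 0.01 over the 3 times but 0.18, −0.47 and 0.40 by time. Without the DOC array at 24 h 3 were higher and 1 lower, with a median of 0.27. At 24 h 2 of the 19 lay above 0, and the mean level was 8.88 with DOC and 8.06 with albumin. Inhba, a subunit of activin, had 9.93, 8.09 and 9.90 with albumin and 9.80, 12.38 and 8.27 with DOC (−0.85 ± 0.99, adjusted p = 0.848). Pmepa1 had 7.59, 7.84 and 8.60 against 6.91, 10.32 and 7.32, and Tgfbi, a matrix protein named for its induction by TGF-β, 4.10, 5.43 and 7.53 against 4.47, 8.39 and 4.10. On the TGF-β1 arrays at 24 h these were 8.03, 8.63 and 4.87, all under the DOC array of that time. Smad7 had 6.58, 7.17 and 6.75 against 6.12, 7.96 and 6.53. Tgfb1 itself had 3.96, 4.63 and 5.07 against 3.78, 4.96 and 4.14 (0.26 ± 0.32, adjusted p = 0.857; 95% interval −0.50 to 1.01), and Eng, an endothelial co-receptor, 1.24 ± 0.55 (adjusted p = 0.675). Sprr1a, an injury-induced protein, also peaked with DOC at 24 h, at 3.68, 6.78 and 10.31 with albumin and 3.08, 11.48 and 7.39 with DOC.

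Cell cycle genes were higher with albumin at 24 h and with DOC at 48 h. Of 17 tested members, 1 was higher at an unadjusted p under 0.05, the replication helicase Mcm6 (1.03 ± 0.43, adjusted p = 0.664). The 1 lower member was Aurkb, which passed the filter only through its DOC arrays and so had to differ. Over all genes the shares were 4.88% higher and 2.6% lower. With the DOC array at 48 h left out 3 members were higher. The medians were 0.12, 0.70 and −0.69 by time. At least 2-fold higher with albumin at 24 h were 6 (3.02% over all genes), and 5 were lower at 48 h (1.79%). At 24 h the median level of the list was 4.62 with albumin and 3.82 with DOC, near the filter value of 4, so the sizes at that time are not exact. Cdk1, the mitotic kinase, had 3.14, 4.57 and 6.95 with albumin and 2.74, 2.54 and 7.49 with DOC. Mki67, the proliferation marker, had 3.14, 4.62 and 6.57 against 2.71, 3.26 and 7.26. Both groups had their highest signal at 48 h, where the TGF-β1 array had 7.11 and 6.45. Ccnd1, a cyclin of the entry into the cycle, had 7.45, 8.77 and 8.68 against 7.19, 7.94 and 9.92.

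**Figure D5:**
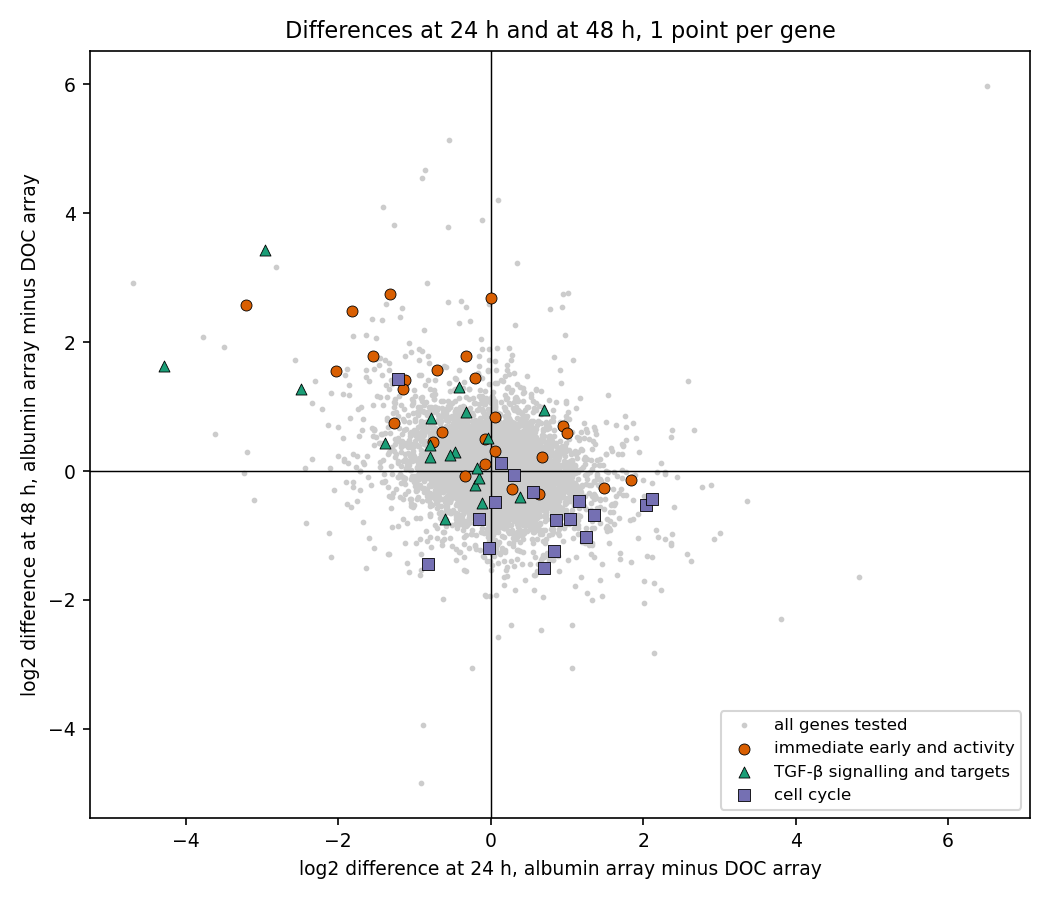
Log2 difference between the albumin and the DOC array at 24 h (x axis) and at 48 h (y axis) for each of 10018 genes, with the immediate early, TGF-β and cell cycle lists in colour; each difference compares 1 array with 1 array. The cell cycle genes have medians of 0.70 and −0.69, the immediate early genes −0.26 and 0.72.

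Cholesterol genes differed mainly at 24 h. Of 23 cholesterol genes, 7 were at least 2-fold higher with albumin at 24 h and 0 lower (3.02% and 2.51% over all genes). The medians were −0.13, 0.61 and −0.22 by time. Over the 3 times 1 was higher at an unadjusted p under 0.05 and 1 lower, near the shares over all genes (4.88% and 2.6%). They were the desaturase Sc5d (0.41 ± 0.15, adjusted p = 0.645) and, in the lower direction, Hsd17b7 (−0.38 ± 0.14, adjusted p = 0.646). Without the albumin array at 48 h 4 were higher, and without the DOC array at 24 h the median over the times was −0.11 in place of 0.10. Fdft1, squalene synthase, had 10.04, 10.63 and 9.62 with albumin and 10.08, 8.99 and 10.00 with DOC, and the squalene epoxidase Sqle 9.83, 10.14 and 9.63 against 10.00, 8.76 and 10.05. The DOC array at 24 h was the lowest of the 6 for both. All 24 ribosomal protein genes lay above 0 at 24 h and 2 at 48 h, with medians of 0.12, 0.29 and −0.16. The 38 genes of oxidative phosphorylation had a median of 0.02, with 0 past an unadjusted p under 0.05 and 0 at least 2-fold apart at any time.

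For the lists that follow, 4.88% of all genes were higher with albumin at an unadjusted p under 0.05 and 2.6% lower. Of 14 glucocorticoid-responsive genes, 1 was higher and 2 lower with albumin at an unadjusted p under 0.05, with medians of −0.09, −0.60 and 0.22. Without the DOC array at 48 h 4 were lower, and without that at 24 h the median over the times was 0.13 in place of −0.09. The lower ones were Pdk4 and the sulfotransferase Sult1a1, at 9.07, 6.66 and 6.04 against 9.44, 8.01 and 7.34 (−1.0 ± 0.26, adjusted p = 0.645). Of 18 circadian clock genes, 4 were higher and 1 lower (median 0.14). Tef had 8.83, 8.81 and 9.04 against 8.81, 8.15 and 8.15 (0.52 ± 0.18, adjusted p = 0.645). Dbp, a clock output gene, had 9.19, 8.81 and 8.98 against 8.71, 7.30 and 8.73 (0.75 ± 0.27, adjusted p = 0.645), and the nuclear receptor Rorb −0.93 ± 0.30 (adjusted p = 0.645). The count of 4 clock genes was 0 without the albumin array at 24 h or all 24 h arrays, 1 without the DOC array at 24 h or with the 6 arrays alone, and 2 without the albumin or DOC array at 48 h or the TGF-β1 array at 8 h. It was also 1 without the time term or the filter and 2 with the mean of probe sets. The labels give no hour of day. Of 23 genes of NRF2, metallothionein and hypoxia responses, 2 were higher and 1 lower (median 0.13). Leaving out the DOC array at 48 h gave 3 higher and 5 lower, with a median of −0.08. In the reported fit the higher genes were Ndrg1, induced by hypoxia (0.56 ± 0.15, adjusted p = 0.645), and the metallothionein Mt2A (0.54 ± 0.19, adjusted p = 0.645). The lower gene was Ankrd37 (−0.60 ± 0.25, adjusted p = 0.664). Hmox1, which degrades haem, had 7.42, 10.29 and 9.21 against 7.52, 9.96 and 8.21, with 3.58 in the sham (0.41 ± 0.50, adjusted p = 0.853). All 6 arrays were above that sham level. Of 19 heat shock genes, 1 was higher, Hspa4 (0.46 ± 0.17, adjusted p = 0.646), and Hspa1a, the inducible chaperone, had 7.91, 9.0 and 5.08 against 6.58, 5.65 and 5.55 (1.40 ± 0.98, adjusted p = 0.748). Of 23 genes of the unfolded protein response, 2 were higher, the endoplasmic reticulum chaperones Calr (0.42 ± 0.13, adjusted p = 0.645) and Pdia3 (0.44 ± 0.16, adjusted p = 0.646). Without the DOC array at 48 h the unfolded protein list had 4 higher and 3 lower. The heat shock count ran from 0 to 3 with 1 array left out. In the reported fit the NRF2, heat shock and unfolded protein counts were near the shares over all genes. They are therefore no result about these lists.

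The other widest gaps at single times each rested on 1 or 2 arrays. Prss35, a secreted protease-like protein, had 3.09, 4.42 and 8.95 with albumin and 7.29, 8.19 and 6.87 with DOC (−1.96 ± 1.18, adjusted p = 0.715), so DOC was higher at the early time and 24 h and albumin at 48 h. Tagln, an actin-binding protein of smooth muscle, had 9.46, 11.62 and 9.45 against 6.43, 6.79 and 11.10 (2.07 ± 1.15, adjusted p = 0.702). Pik3r1, a regulatory subunit of PI3 kinase, had 7.58, 4.88 and 9.06 against 5.42, 5.43 and 3.93 (2.25 ± 1.04, adjusted p = 0.678). In Tagln and Pik3r1 the groups overlapped. The iron exporter Slc40a1 had 3.98, 3.36 and 6.35 against 3.49, 6.97 and 5.77 (−0.85 ± 0.81, adjusted p = 0.81). Fst, which binds activin, had 3.96, 4.01 and 3.96 against 2.91, 2.95 and 7.01 (−0.32 ± 0.93, adjusted p = 0.956). Pxmp4, a peroxisomal membrane protein, had 4.27, 7.31 and 7.78 against 7.74, 7.22 and 3.57, and Tmem44 2.58, 2.58 and 2.68 against 6.34, 3.77 and 2.75.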

How the data were processed

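Total RNA of rat somatosensory cortex was hybridised to Affymetrix arrays. Probe set signals were deposited on a log2 scale. According to the submitters' processing notes, the authors used GCRMA, whose version is not given in the sources used here. The method corrects background from probe sequence and normalises arrays to one distribution, so low signals collect near a floor and an overall shift of an array cannot be seen. Precision is limited by how few arrays there are.

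Of 31099 probe sets, 57 were controls, 20826 named 1 gene, 436 several and 9780 none. Symbols came from the platform table, updated through the GRCr8 gene table by Entrez identifier (20758), accession (2) or kept (66). Each of 14217 genes was read by its probe set with the highest mean over 19 arrays (4525 had more than 1), and 10018 had a log2 value above 4 on at least 2 of the set 1 arrays. limma 3.58.1 in R 4.3.3 was fitted to 9 treated arrays with treatment and time terms (residual degrees of freedom 4, prior 3), with two-sided p-values adjusted by Benjamini-Hochberg across the genes tested. The test was checked on simulated data. SE is the moderated standard error, and intervals are at 95%. With 3 pairs of arrays, an exact sign-flip test of 1 gene cannot go below p = 0.25. Tables were made in Python 3.11.15 (pandas 2.3.3, numpy 2.4.6) and plots with matplotlib 3.10.9.

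The comparison, the gene lists and the rule for named genes were chosen with earlier results of these data known. The rule took the 10 genes per direction with the smallest p and one sign at all times, the 5 per direction whose weakest difference was largest, the 4 per direction with the widest gap at each time, from each list at most 3 members by smallest p, and 15 markers. Other genes were named after their values were seen. Lists are described by counts and medians and carry no test. Alternatives were the arrays in the fit, the time term, the filter, the prior, the centring, the probe set per gene, and leaving out each array or time.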

Additional observations from a re-analysis of the deposited data

Results flagged for a closer look

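Lists with medians of at least 0.25 in opposite directions at 2 times are given here. The difference between times was not tested, since each time is 1 array against 1.

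Cell cycle genes had a median log2 difference, albumin minus DOC, of 0.12 at the early time, 0.70 at 24 h and −0.69 at 48 h. Immediate early and activity genes had −0.35, −0.26 and 0.72 at the same times. TGF-β signalling and target genes had 0.18, −0.47 and 0.40.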

How the results depend on the processing

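The count of genes past the threshold was 1 in the reported fit, 0 with the 6 albumin and DOC arrays alone, which leaves 2 residual degrees of freedom, and 2 without the 48 h arrays of all 3 treatments, where Slfn4 joined Brcc3-ps7. It was 1 under the other 17 alternatives, which included leaving out each array in turn (range 1 to 1). The count of genes at least 2-fold higher at all 3 times was 5 in the reported setting and stayed within 1.5 times of that under its 4 alternatives. For single genes and alternatives, 2582 of 2584 values kept their side of the threshold, and 0 called values changed sign. Every named gene but Brcc3-ps7 had an adjusted p of 0.46 or more in the reported fit. A change of sign was counted only where a gene passed the threshold. This agreement was therefore largely fixed beforehand and does not show that the differences of single genes are stable. Medians of gene lists moved by more than their spread in 11 of 569 cases, 7 of them when a DOC array was left out. Spread here is the standard deviation of the 3 medians by time, so a list that differed widely between times could hardly move. The interferon median went from 0.93 to 0.39 without the albumin array at 8 h and was not counted as moved. The low count therefore does not show that the lists are stable. No paired analysis was possible because the set 1 arrays carry no replicate numbers, so arrays were matched by time alone, which is a term of the reported fit, and the numbered samples of set 2 enter no comparison. The limits are those of 1 array per treatment and time: an effect at 1 time cannot be told apart from the difference between single arrays, and signals near the floor have no reliable order.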
